A study of Homo sapiens with 16 samples.

Results

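The 5 genes described here encode HCF-1, its closest relative, a small protein that binds it, and the enzyme pair that adds and removes O-linked N-acetylglucosamine (O-GlcNAc). They are HCFC1 (ENSG00000172534), HCFC2 (ENSG00000111727), HCFC1R1 (ENSG00000103145), OGT (ENSG00000147162) and MGEA5 (ENSG00000198408, now named OGA). Members were taken by gene symbol, and all 5 were among the 56969 Ensembl genes of the deposited table. HepG2, an established human liver cancer cell line, was transfected either with control siRNA or with HCF-1 siRNA, and each transfection was repeated after a pause before RNA was collected. Each group had 8 libraries, which the labels call biological replicates; both groups went through the same transfection procedure, the siRNA sequences are not stated in the labels, and all data come from this 1 cell line.

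HCF-1 is a chromatin-bound cofactor that carries no DNA-binding domain of its own and is brought to promoters by transcription factors. It is made as a long precursor and is cut within a series of internal repeats by OGT, which also glycosylates it, and the fragments stay together. OGT is the cell's single nucleocytoplasmic O-GlcNAc transferase, and MGEA5 encodes the O-GlcNAcase that removes the same sugar. OGT and the O-GlcNAcase are known to adjust each other's expression when cellular O-GlcNAc changes. In liver cells O-GlcNAc is known as a readout of glucose supply, since its donor UDP-GlcNAc is made through the hexosamine pathway.

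Promoter sequences are shown for the gene of the 4 besides HCFC1 that fell, HCFC1R1, and for the 2 that rose, OGT and HCFC2, so that their upstream letters can be set beside their values. RefSeq windows (build GRCh38.p14) were at hand for 4 of the 5 genes, 250 bases before to 50 bases after each annotated start, and the 250 bases before the start are printed, 5′ to 3′ on the gene's strand, with motif matches in capitals. The HCFC1R1 stretch is chr16:3024287-3024536 (minus strand), the OGT stretch is chrX:71532854-71533103 (plus strand) and the HCFC2 stretch is chr12:104064281-104064530 (plus strand).
HCFC1R1: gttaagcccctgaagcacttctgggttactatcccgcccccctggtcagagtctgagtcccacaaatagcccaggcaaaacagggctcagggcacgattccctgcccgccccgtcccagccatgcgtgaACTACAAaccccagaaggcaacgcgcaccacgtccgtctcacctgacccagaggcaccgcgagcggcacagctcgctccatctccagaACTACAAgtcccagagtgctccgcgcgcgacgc
OGT: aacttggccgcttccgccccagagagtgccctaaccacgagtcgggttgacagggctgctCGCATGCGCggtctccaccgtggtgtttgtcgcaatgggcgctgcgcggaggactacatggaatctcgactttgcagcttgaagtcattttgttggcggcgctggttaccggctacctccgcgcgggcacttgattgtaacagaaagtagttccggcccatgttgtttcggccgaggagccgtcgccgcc
HCFC2: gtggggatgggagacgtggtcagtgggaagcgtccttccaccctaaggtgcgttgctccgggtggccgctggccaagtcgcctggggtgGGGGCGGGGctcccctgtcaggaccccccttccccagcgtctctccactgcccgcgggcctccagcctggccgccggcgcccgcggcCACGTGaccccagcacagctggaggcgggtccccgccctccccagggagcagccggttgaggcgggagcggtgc

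The motifs searched, on both strands, were ACTACAA, the core of the element bound by THAP11 and ZNF143, CCGGAAG for ETS factors such as GABPA, AAGATGGCG for YY1, GGGGCGGGG for SP1, TTTCCCGC for E2F, TGACGTCA for CREB-type factors, GCGCATGCG for NRF1 and CACGTG for E-box proteins. None of them contains another. They were chosen with earlier results of these data known, and the letters for YY1 and NRF1 were shortened after a first search with longer forms had been seen. Over 35116 promoter windows of the same length, these were found in 2.77%, 10.3%, 1.75%, 15.7%, 1.63%, 1.85%, 1.92% and 7.26% of windows, in that order. Upstream of the outer of the 2 annotated HCFC1R1 starts, ACTACAA was found at positions -121 and -33, counted to the first base of the match with -1 the base before the start. Of all windows, 0.196% held ACTACAA 2 or more times. Counted per gene, which can have several windows, it was 45 of 10667 protein-coding genes tested with a promoter sequence. HCFC2 had matches for GGGGCGGGG at -161 and for CACGTG at -74 in the printed stretch, and further matches for GGGGCGGGG and AAGATGGCG lay after its start. In the OGT window the NRF1 letters were matched once, on the opposite strand, at -190; the longer NRF1 form of the first search had no match there. No motif was matched in the MGEA5 window or the inner HCFC1R1 window. These matches describe letters and are not evidence of binding.

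HCFC1, the targeted gene, was lower in every HCF-1 siRNA library than in any control library. Control libraries had a lowest, median and highest value of 4851, 5548 and 6878 normalized counts, which are reads divided by the authors' size factor for each library. HCF-1 siRNA libraries had 3112, 3654 and 4171 normalized counts. The mean fell to 65.4% of control, so about that share of the measured HCFC1 RNA remained. The log2 fold change was -0.61 ± 0.07 (SE, n = 8 and 8; limma adjusted p = 4.52e-06), and every fold change below is likewise on the log2(normalized count + 1) scale. HCFC1-AS1, an antisense gene that overlaps HCFC1, was near 0 in all libraries, with means of 0 and 0.245 normalized counts in control and HCF-1 siRNA libraries, and is named outside the naming rule.

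HCFC2 encodes HCF-2, which shares the kelch and fibronectin-type domains of HCF-1 but lacks its cleavage repeats. It was expressed at a low level and rose after HCF-1 siRNA. Control libraries had a lowest, median and highest value of 37.3, 50.4 and 62.96 normalized counts, and HCF-1 siRNA libraries had 45.5, 74.2 and 112.5. Of the 8 HCF-1 siRNA libraries, 6 lay above the highest control library, and the other 2 lay within the control range. The log2 fold change was 0.55 ± 0.18 (SE, n = 8 and 8; limma adjusted p = 0.0243, exact two-sided permutation p = 0.0107). Only 28 to 70 reads per control library and 40 to 164 per HCF-1 siRNA library stand behind these values. Counting alone gives a coefficient of variation of 14.8% in control and 11.4% in HCF-1 siRNA libraries, and the observed values were 18.9% and 30.5%. The call was lost without HCF-1 siRNA replicate 2 (adjusted p = 0.0515) or replicate 4 (adjusted p = 0.0504), the 2 libraries with the highest values.

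HCFC1R1 encodes a small protein that binds the kelch domain of HCF-1 and is known to promote its export from the nucleus. It fell after HCF-1 siRNA. Control libraries had a lowest, median and highest value of 397.6, 431.5 and 495.3 normalized counts, and HCF-1 siRNA libraries had 315.1, 351.1 and 442.5. All but 1 of the HCF-1 siRNA libraries, replicate 6, lay below the lowest control library. The log2 fold change was -0.31 ± 0.07 (SE, n = 8 and 8; limma adjusted p = 0.00334, exact two-sided permutation p = 0.00124). In GENCODE 29 the exons of HCFC1R1 overlap those of THOC6, a gene of the mRNA export complex TREX on the opposite strand, over 260 of 1433 bases (18.1%), and without the strand setting of the counting, reads there cannot be assigned to either gene. THOC6 itself had 946 ± 63.2 and 915 ± 120.4 normalized counts in control and HCF-1 siRNA libraries (log2 fold change -0.05 ± 0.07, limma adjusted p = 0.594) and did not pass; leaving out 1 library at a time gave -0.0943 to -0.0275.

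OGT, which glycosylates and cleaves HCF-1, rose, and its groups did not overlap. Control libraries had a lowest, median and highest value of 1201, 1471 and 1741 normalized counts, and HCF-1 siRNA libraries had 1994, 2435 and 2855. The lowest HCF-1 siRNA library, replicate 4, was thus above the highest control library. The log2 fold change was 0.71 ± 0.08 (SE, n = 8 and 8; limma adjusted p = 3.64e-06), a rise to 163.6% of the control mean. The exact two-sided permutation p was 1.55e-04 for OGT and for HCFC1, the smallest that the splits of these libraries can give. Across all 16081 genes tested, 5.80% had a larger fold increase than OGT and 4.89% a larger fold decrease than HCFC1.

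MGEA5, the opposing enzyme, changed less and did not pass the threshold. Control libraries had a lowest, median and highest value of 1410, 1469 and 1906 normalized counts, and HCF-1 siRNA libraries had 1605, 1720 and 1979. All 8 HCF-1 siRNA libraries lay above the control median, but only 1 lay above the highest control library. The log2 fold change was 0.17 ± 0.07 with a 95% interval of 0.026 to 0.304 (SE, n = 8 and 8; limma adjusted p = 0.0588, exact two-sided permutation p = 0.0323 before any adjustment). The threshold was passed without control siRNA replicate 1 (adjusted p = 0.0338) or 3 (0.0106), the 2 control libraries with the highest MGEA5 values, and narrowly without HCF-1 siRNA replicate 1 (0.0482) or 4 (0.0496).

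**Figure D1:**
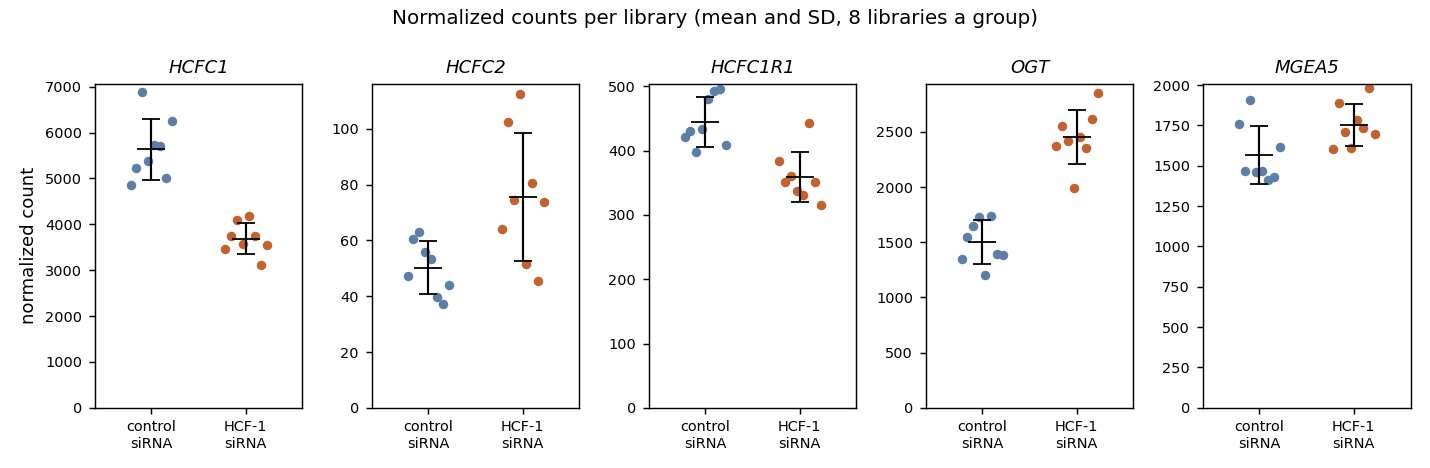
Normalized counts (y axes, each from 0) of HCFC1, HCFC2, HCFC1R1, OGT and MGEA5 in 8 control siRNA and 8 HCF-1 siRNA libraries, with 1 point per library and bars for the mean and SD. The groups are apart for HCFC1 and OGT and overlap for HCFC2, HCFC1R1 and MGEA5.

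Of the 5 genes, 2 rose (HCFC2 and OGT), 2 fell (HCFC1 and HCFC1R1) and 1 did not pass. Of all genes tested, 36.6% passed in either direction, 18.2% higher and 18.3% lower, so a call by itself is common in this comparison. Groups did not overlap for 9.82% of genes tested, and for 2 of the 5 genes. HCF-1 siRNA libraries held more reads than control libraries (25098840 to 43186890 against 21030830 to 32820459, exact two-sided permutation p = 0.0375). After reads were thinned to the smallest library, the log2 fold changes were -0.59 for HCFC1, 0.50 for HCFC2 (limma adjusted p = 0.0444), -0.31 for HCFC1R1, 0.72 for OGT and 0.16 for MGEA5. In bulk libraries such as these, a change in RNA per cell and a change in the share of cells that express a gene cannot be told apart. All 8 hepatocyte-like markers examined, ALB, AFP, APOA1, APOB, TF, SERPINA1, TTR and HNF4A, were expressed, the blood marker PTPRC, the endothelial marker KDR and the mesenchymal marker VIM had overall means of at most 0.55 normalized counts, and 2 of 3 blood, 1 of 2 measured endothelial and 2 of 4 mesenchymal markers had means of 10 or more. Of these, LAPTM5 fell from 182.9 ± 16.3 to 146.8 ± 16.6 and COL1A1 from 746 ± 172.7 to 501 ± 86.5 normalized counts (SD, n = 8 each; limma adjusted p = 0.00694 and 0.00718). CD74 had 3401 ± 279 and 3059 ± 310 (limma adjusted p = 0.0651), CDH5 91.01 ± 22.7 and 111.5 ± 20.3 (0.115) and PDGFRB 453.8 ± 75.4 and 599.7 ± 178.4 (0.0859), and these did not pass. The summed blood, endothelial and mesenchymal markers were 3106 to 4064, 75.5 to 144.1 and 911 to 1441 normalized counts in control and 2840 to 3713, 77.5 to 140.3 and 863 to 1466 in HCF-1 siRNA libraries, so each overlapped. The summed hepatocyte-like markers were 722942 to 788642 normalized counts with control siRNA and 861100.4 to 1029269.6 with HCF-1 siRNA, which do not overlap. Singly, all of them but APOA1 (limma adjusted p = 0.121) were called higher. The log2 fold changes called ran from 0.088 (SERPINA1) to 0.629 (TTR). The calls of SERPINA1 and HNF4A were lost in 13 and 12 of 26 alternatives. The part of these marker shifts in the results here was not tested.

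Per kilobase of exon, the 5 genes could be put in order in control cells. HCFC1 was highest at 625 ± 74.5 normalized counts per kb (SD, n = 8), above 84.6% of the protein-coding genes tested. It was followed by HCFC1R1 at 310.5 ± 27.0, MGEA5 at 216 ± 24.9 and OGT at 153 ± 20.2, and HCFC2 was far below at 7.41 ± 1.399. The ranges over the 8 control libraries did not overlap between any neighbours in this order, which also rests on the exon lengths used. Before division by length, the control ranges of MGEA5 and OGT overlapped (1410 to 1906 and 1201 to 1741 normalized counts). After HCF-1 siRNA, HCFC1 was still highest at 409 ± 37.7 and HCFC2 still lowest at 11.2 ± 3.40 normalized counts per kb. HCFC1R1 (250.55 ± 27.6), OGT (249.99 ± 25.2) and MGEA5 (241.5 ± 17.95) then had overlapping ranges and stood in no order beyond their spread. Lengths were unions of GENCODE 29 exons (9004 bases for HCFC1, 6773 for HCFC2, 1433 for HCFC1R1, 9812 for OGT and 7247 for MGEA5), which can be longer than the transcripts HepG2 cells use, so levels between genes are approximate.

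**Figure D2:**
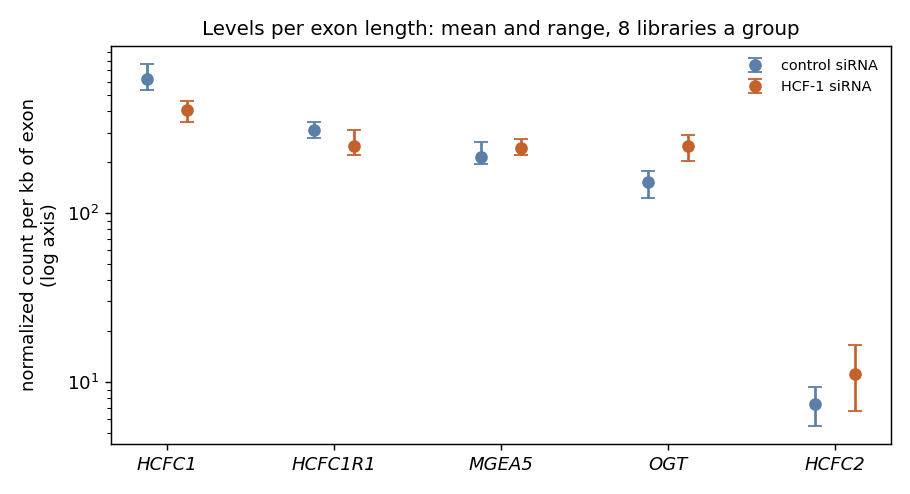
Normalized counts per kilobase of exon (log y axis) for the 5 genes in control siRNA and HCF-1 siRNA libraries, as the mean with the lowest and highest of 8 libraries. OGT moved from 153 to 249.99 and HCFC1R1 from 310.5 to 250.55, and their ranges then overlapped each other and that of MGEA5. Levels between genes depend on the exon lengths used and are approximate.

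Ratios taken within each library compare the changes of 2 genes directly and do not depend on how libraries are scaled, apart from the pseudocount. OGT over MGEA5 tells whether the transferase and the hydrolase RNA moved together. It had a lowest, median and highest value of 0.765, 0.919 and 1.235 in control and 1.237, 1.367 and 1.685 in HCF-1 siRNA libraries. The groups only just failed to overlap. Its log2 difference was 0.55 ± 0.10 (SE, n = 8 and 8; exact two-sided permutation p = 1.55e-04, adjusted p = 2.07e-04 over 4 ratios), so OGT rose by more than MGEA5 did.

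HCFC2 over HCFC1 went up by 1.157 ± 0.18 on the log2 scale and OGT over HCFC1 by 1.32 ± 0.11 (SE, n = 8 and 8; exact permutation p = 1.55e-04 each, adjusted p = 2.07e-04), with no overlap of groups. Both ratios include the fall of the targeted gene HCFC1 itself (log2 fold change -0.61). They would therefore rise even if HCFC2 or OGT had not changed. HCFC2 nevertheless remained a small part of the pair. Per kilobase of exon it made up 1.18% ± 0.216 of HCFC1 plus HCFC2 in control (SD, n = 8; 0.917% to 1.51%) and 2.66% ± 0.793 in HCF-1 siRNA libraries (SD, n = 8; 1.62% to 4.03%). HCFC1R1 over HCFC1 rose by 0.30 ± 0.11 on the log2 scale (SE, n = 8 and 8; exact permutation p = 0.0179, adjusted p = 0.0179), since HCFC1R1 fell by less than HCFC1, and these groups overlapped.

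**Figure D3:**
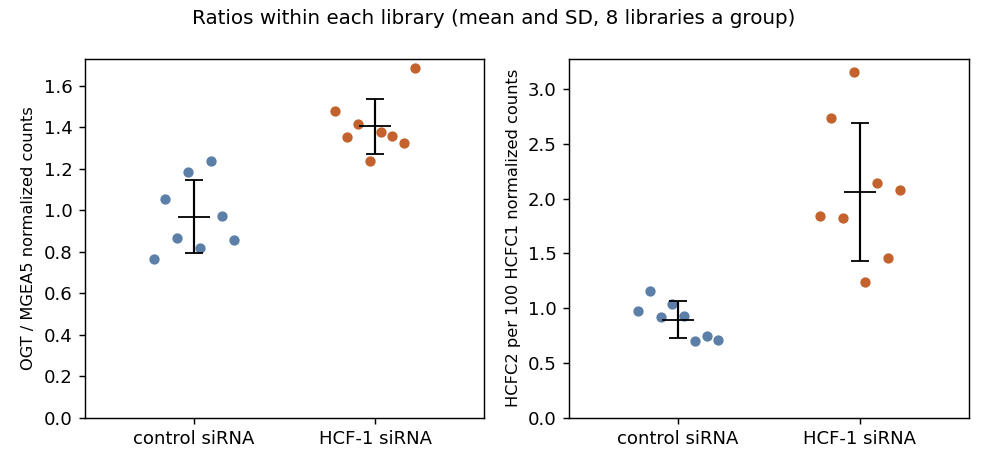
OGT divided by MGEA5 (left) and HCFC2 per 100 HCFC1 normalized counts (right), 1 point per library with the mean and SD of 8 libraries a group, y axes from 0. Both ratios were higher in every HCF-1 siRNA library than in any control library, for OGT over MGEA5 by as little as 1.237 against 1.235. The denominator on the right, HCFC1, is the siRNA target.

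Relations between the 5 genes were examined across the libraries of each group. Each r was also taken without the 2 libraries farthest from the group median of the first gene named. That r rests on fewer libraries and was not tested. Of 20 relations (10 pairs in each of 2 groups), 0 passed by Pearson's r after adjustment, 1 had an unadjusted p under 0.05, and 1 passed by Spearman's rho; with 8 libraries a group, moderate relations cannot be told from none. HCFC1 and OGT, which moved apart between groups, had r = 0.223 over the 8 control libraries (rho = 0.143, exact permutation p = 0.591 and 0.752, adjusted p = 0.927 and 0.933; r = -0.201 without the 2 farthest libraries). Over the 8 HCF-1 siRNA libraries their r was -0.136 (rho = -0.262, exact permutation p = 0.762 and 0.536, adjusted p = 0.952 and 0.825; r = 0.0631 without the 2 farthest). HCFC1R1 and MGEA5 ran opposite to each other in control libraries, with r = -0.789 (exact permutation p = 0.0199, adjusted p = 0.398) and rho = -0.929 (exact permutation p = 0.00223, adjusted p = 0.0446), and r was -0.722 without the 2 farthest libraries. In HCF-1 siRNA libraries the same pair had r = -0.0846 and rho = -0.0476 (exact permutation p = 0.848 and 0.935, adjusted p = 0.99 and 0.935; r = -0.275 without the 2 farthest). The enzyme pair OGT and MGEA5 had r = 0.509 and rho = 0.5 in HCF-1 siRNA libraries (exact permutation p = 0.197 and 0.216, adjusted p = 0.794 and 0.721; r = 0.918 without the 2 farthest). In control libraries that pair had r = -0.0346 and rho = -0.381 (exact permutation p = 0.941 and 0.36, adjusted p = 0.99 and 0.825; r = -0.0363 without the 2 farthest). HCFC2 and HCFC1R1 had r = -0.618 and rho = -0.619 in control libraries (exact permutation p = 0.108 and 0.115, adjusted p = 0.794 and 0.721), and r was -0.0194 without the 2 farthest. Whether the groups differ in any of these relations was not tested.

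**Figure D4:**
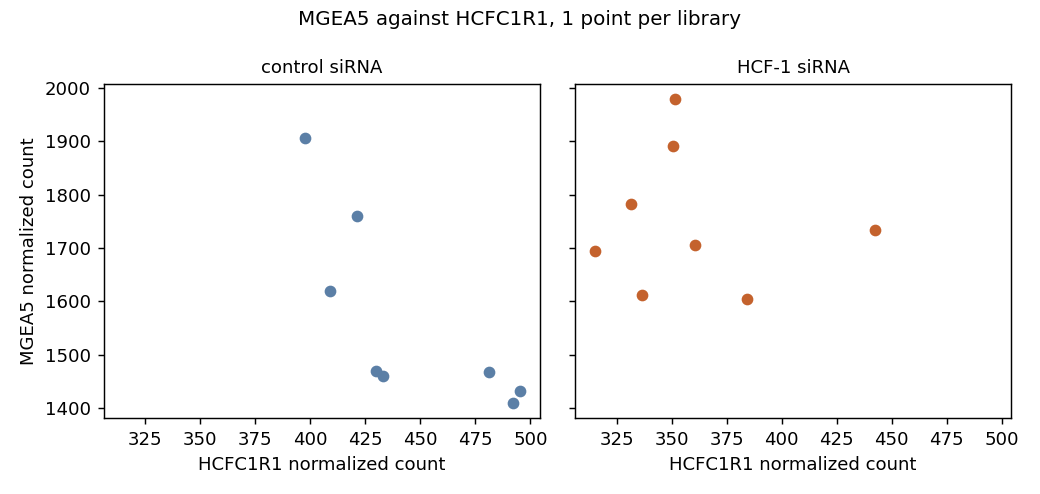
MGEA5 against HCFC1R1 normalized counts, 1 point per library, in 8 control siRNA (left) and 8 HCF-1 siRNA libraries (right), on shared axes that do not start at 0. This pair in control libraries was the most extreme of 20 relations, with r = -0.789 (exact permutation, adjusted p = 0.398) and rho = -0.929 (adjusted p = 0.0446). HCF-1 siRNA libraries showed r = -0.0846.

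The genes whose variation between libraries was most like that of each member were found by Pearson's r over all 16 libraries after subtraction of the group means, among 11469 genes with a mean of 100 or more. These are the highest of many values and are given as a description. For HCFC1 they were GIPC2 (r = 0.802), C2CD2 (0.779) and SRD5A1 (0.749), a steroid 5-alpha-reductase gene. For HCFC2 they were SEPHS2 (0.794), a selenophosphate synthetase gene, CASP6 (0.779) and COX15 (0.738). Those of HCFC1R1 were CD7 (0.884), EPHB4 (0.862), an ephrin receptor gene, and CDK2AP1 (0.856). OGT was closest to RHOBTB2 (0.881), TMEM19 (0.809) and CEP250 (0.806), a centrosome gene, and MGEA5 to ZBTB24 (0.869), MYO5C (0.827) and ZNF217 (0.824). On the same scale the 5 genes themselves were at most 0.244 to one another (HCFC1 and HCFC2), and the lowest value was -0.455 (HCFC1R1 and MGEA5).

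Most of the genes that make and use the O-GlcNAc donor were not called, as was so for most genes tested, and those called moved in both directions. Of 14 genes of UDP-GlcNAc supply, 13 were tested, and of these 1 rose, 2 fell and 10 missed the threshold, where 36.6% of all genes tested were called. Their median log2 fold change was -0.04, against 0.01 for all genes tested. GFPT1, the rate-limiting enzyme of the hexosamine pathway, rose by 0.19 ± 0.05 (SE; limma adjusted p = 0.00838), from 4789 ± 396 to 5463 ± 343 normalized counts (SD, n = 8 each). NAGK, which salvages free N-acetylglucosamine, had a log2 fold change of -0.33 ± 0.09 (limma adjusted p = 0.00581). RENBP, an N-acyl-D-glucosamine 2-epimerase gene, fell from 49.3 ± 10.3 to 26.1 ± 11.2 normalized counts (SD, n = 8 each; limma adjusted p = 0.00419), and it is named outside the naming rule, after its values were seen, because its level was low. EOGT, the separate O-GlcNAc transferase of the secretory pathway, had a log2 fold change of 0.12 ± 0.08 (limma adjusted p = 0.255), did not pass, and is named outside the rule. The transferase of the nucleus and cytoplasm, OGT, was thus called and EOGT was not, but the difference between their changes was not tested.

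Of 15 tested partners of OGT or genes of the BAP1 deubiquitinase complex (PR-DUB), 4 rose, 1 fell and 10 missed the threshold. The share called was near the 36.6% of all genes tested, and the median log2 fold change was 0.13. TET1 (0.63 ± 0.07) and TET3 (0.35 ± 0.05), DNA dioxygenases that bind OGT, rose (limma adjusted p = 2.22e-06 and 1.73e-05). TET1 had 734 to 1003 normalized counts in control and 1149 to 1502 in HCF-1 siRNA libraries, with no overlap. ASXL2, a subunit of the BAP1 deubiquitinase complex that holds both HCF-1 and OGT, rose by 0.32 ± 0.07 (limma adjusted p = 0.0029), whereas BAP1 itself, named outside the rule, had a log2 fold change of -0.10 ± 0.07 (limma adjusted p = 0.305). KDM1B, a histone demethylase gene, fell by 0.43 on the log2 scale (SE 0.06, limma adjusted p = 1.58e-05), from 771 to 998 normalized counts in control to 584 to 672 in HCF-1 siRNA libraries. The other called gene, PPP1R12A, rose by 0.22 ± 0.06 (limma adjusted p = 0.0116) and is also named outside the rule.

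Among factors known to bind HCF-1 or to bring it to DNA, 6 of 12 rose, 0 fell and 6 missed the threshold, where 18.2% of all genes tested rose and 18.3% fell, and the median log2 fold change was 0.17. The list was chosen with earlier results of these data known, and 4 to 7 of the 12 were called over 26 alternatives. With total-count or upper-quartile scaling, edgeR or DESeq2, 1 of them was called lower. THAP1, a zinc finger factor with an HCF-1-binding motif, rose from 176 ± 34.0 to 421 ± 41.2 normalized counts (SD, n = 8 each; limma adjusted p = 2.61e-07), and CREBZF and PPARGC1A, which encodes a coactivator with no DNA-binding domain of its own, rose by 0.82 ± 0.08 and 1.32 ± 0.18 (limma adjusted p = 8.54e-07 and 2.13e-05). ZNF143 rose by 0.38 ± 0.13 (limma adjusted p = 0.0314). The ZNF143 call was lost in 9 of 26 alternatives (adjusted p 0.00275 to 0.06295), which include leaving out any of control libraries 1, 2, 3 and 6 or of HCF-1 siRNA libraries 2, 5 and 8. THAP11, which shares its element with ZNF143, had a log2 fold change of -0.01 ± 0.04 (limma adjusted p = 0.833) and is named outside the rule. The other called genes were SP1 (0.14 ± 0.04, limma adjusted p = 0.02195) and YY1 (0.18 ± 0.05, limma adjusted p = 0.0106), which rose and are named outside the rule. SP1 lost its call with no filter on low values, total-count scaling, the replicate block and thinned reads (adjusted p 0.0507 to 0.0793).

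Protein-coding genes with ACTACAA in a promoter window were described as a class because HCFC1R1 held it, so the class was chosen after that gene's values were seen. Windows were matched for 81.0% of 13162 protein-coding genes tested. Of 503 genes with at least 1 ACTACAA, 85 rose and 119 fell (16.9% and 23.7%), with a median log2 fold change of -0.03. Of all 10667 matched genes, 18.1% rose and 21.1% fell, with a median of -0.008. Of 45 genes with 2 or more, HCFC1R1 among them, 8 rose and 17 fell (17.8% and 37.8%), with a median of -0.075.

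Chromosomal neighbours of the 5 genes were examined as the nearest annotated genes, 2 on each side in RefSeq order. Of 20 such genes, 10 had enough counts to be tested, of which 2 rose, 4 fell and 4 missed the threshold, against 18.2% and 18.3% of all genes tested that rose and fell. Their median log2 fold change was -0.14. NFYB, a subunit of the NF-Y transcription factor, lies next to HCFC2 and rose by 0.41 ± 0.10 (limma adjusted p = 0.0044), from 390 to 537 normalized counts in control to 435 to 768 in HCF-1 siRNA libraries. TDG, a DNA glycosylase gene on the other side of HCFC2, rose by 0.25 ± 0.08 (limma adjusted p = 0.0164), and its call was lost with reads thinned to the smallest library (0.19, adjusted p = 0.0746). RENBP, the nearest gene to HCFC1 on one side and counted also with UDP-GlcNAc supply, had a log2 fold change of -0.99 ± 0.24 (limma adjusted p = 0.00419). NAA10, an acetyltransferase gene beyond it, had a log2 fold change of -0.29 ± 0.05 (limma adjusted p = 3.30e-04), and TMEM187 on the other side had -0.36 ± 0.21 (limma adjusted p = 0.197; -0.4718 to -0.2072 with 1 library left out). NPM3, next to MGEA5, fell by 0.23 on the log2 scale (SE 0.07, limma adjusted p = 0.0122), in the direction opposite to the MGEA5 estimate. TNFRSF12A, next to HCFC1R1, had 0.13 ± 0.16 (limma adjusted p = 0.557; 0.0339 to 0.2104 with 1 library left out). CLDN6, the next gene after it and a claudin gene, fell from 784 ± 78.4 to 391 ± 70.4 normalized counts (SD, n = 8 each; limma adjusted p = 1.98e-06) and is named outside the rule.

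**Figure D5:**
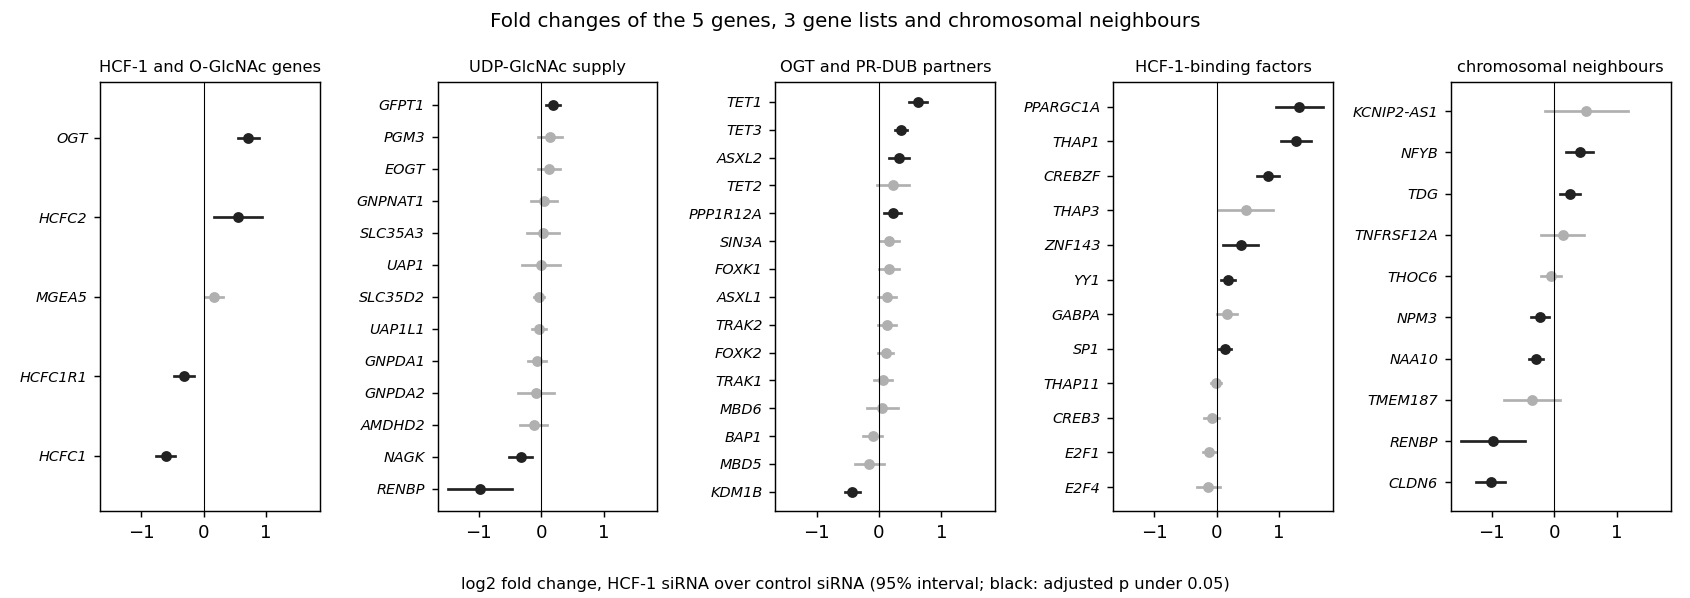
Log2 fold changes between the siRNA groups, HCF-1 siRNA relative to control (x axes, 8 libraries a group) with 95% intervals, for the 5 genes, 3 gene lists and the chromosomal neighbours that were tested; black marks limma adjusted p under 0.05. OGT and HCFC2 lie above 0 and HCFC1 and HCFC1R1 below it, and 10 of 13 genes of UDP-GlcNAc supply are grey. Of all genes tested, 36.6% passed this threshold.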

How the data were processed

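The deposited table holds normalized counts, a signal whose values show reads divided by a size factor for each library. Libraries were made with a stranded mRNA kit, per the labels' protocols. The submitters' processing notes name build hg19 and the tools DESeq2 1.16.1, featureCounts 1.4.4, STAR 2.4.1d and cutadapt 1.4.2. No source used here states the annotation release, the strand setting or filters. Dividing each library by its smallest step gave whole reads for 100% of values (within 0.001 read), and these recovered reads were used for depth and count models. Members and lists were chosen with earlier results of these data known.

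The 8 HCF-1 siRNA libraries were compared with the 8 control siRNA libraries by limma 3.58.1 in R 4.3.3 (trend and robust options) on log2(value + 1), keeping genes whose mean reached 10, with Benjamini-Hochberg adjustment over 16081 genes; the pseudocount understates changes of low genes. Single values and ratios used exact permutation tests. Genes named were the 5 members, per list up to 4 called genes with the largest changes and 50 or more normalized counts in either group, the nearest measured neighbours at that level, the 3 most similar genes per member and the cell markers; others are marked as named outside this rule. Alternatives were pseudocounts, filters, scalings, edgeR 4.0.16, DESeq2 1.42.0, a replicate block, thinned reads and each library left out. Counts were also simulated (15900 genes tested), with 50 genes each changed 1.25-, 1.5-, 2- and 3-fold, all with a mean of 50 or more. Limma called 30%, 72%, 92% and 98% of these and 0.0382% of unchanged genes. Far fewer genes were changed in the simulation than the 36.6% called in the data. These rates therefore cannot be read as those of the real comparison.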

Additional observations from a re-analysis of the deposited data

Results flagged for a closer look

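For each tested gene that is named and each ratio, the library at either end of a group was set against its nearest neighbour, and the gap was divided by the whole spread of the group. Of 124 groups of 8 libraries, 2 had a library standing apart, and chance alone gives about 1 in 20. One was PPARGC1A in replicate 6 of the HCF-1 siRNA group, at 1739.8 normalized counts, where the other libraries of that group lay between 912 and 1276.5. The other was the endothelial marker CDH5 in control siRNA replicate 1, at 144.1 normalized counts against 75.5 to 94.4 in the other control libraries. None of the 5 genes and none of the 4 ratios had such a library.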

How the results depend on the processing

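HCFC1, HCFC1R1 and OGT kept direction and call in all 26 alternatives, and the 4 ratios in all 20. HCFC2 kept its direction in all 26 and lost its call in 3: with no filter on low values (0.5472, adjusted p = 0.0507) and without HCF-1 siRNA replicate 2 or 4, and leaving out each library gave 0.458 to 0.642. MGEA5 kept its direction in all 26 and passed the threshold in 5: with DESeq2 on recovered reads (0.1613, adjusted p = 0.0497) and without 1 of 4 libraries, and leaving out each library gave 0.1395 to 0.207. The number of genes called ran from 5163 (no filter) to 6258 (DESeq2), with 5875 by edgeR; higher and lower calls were 2932 and 2947 as reported, 2585 and 3395 with total-count scaling and 2755 and 3150 with upper-quartile scaling. List counts stayed within 1.5 times the reported ones. Same-numbered libraries had correlations of deviations from -0.13 to 0.138, over 0.1 for 2 of 8 pairs, and 1 of 8 control libraries correlated best with its own number. These values cannot show whether the libraries were prepared in pairs. A replicate block lowered the SE for HCFC1 (0.071 to 0.047), HCFC2 and HCFC1R1 and raised it for OGT (0.081 to 0.092) and MGEA5. With the replicate block 5484 genes were called, HCFC2 had 0.5472 (adjusted p = 0.0172), and no call of the 5 genes changed. HCFC2 had the fewest reads of the 5 genes, 28 to 164 per library. THAP11, which was not called, changed sign without HCF-1 siRNA replicate 1 (0.0042, adjusted p = 0.941), and leaving out each library gave -0.0243 to 0.0042.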
